A study of Mus musculus with 4 samples.

Results

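The genes described here are those of 7 protein arginine methyltransferases, Prmt1, Prmt2, Prmt3, Carm1, Prmt5, Prmt6 and Prmt7, out of 18113 gene names in the array table. The rule used their names alone, although the family was picked with earlier results of these arrays known. The table lists 6 of them under their symbols. Prmt1 stands under the older name HRMT1L2, which the deposited table describes as protein arginine N-methyltransferase 1. Of the other family members, Prmt8 had log2 levels of 2.55 to 2.83 and Prmt9, listed as AI931714, 2.70 to 3.81. These lie below the floor defined below on all 4 arrays, and neither gene is described further.

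RNA came from cultured mouse fetal liver hematopoietic progenitors of 4 groups, with 1 Illumina array each. The groups were Btg1-/- cells with ETV6-RUNX1, Btg1-/- cells with the control retrovirus (Ctrl), wild-type (WT) cells with ETV6-RUNX1 and WT cells with Ctrl. All cells were from C57BL/6J embryos at day 13.5, were isolated with magnetic beads as c-Kit+ and Ter119-, and met the retrovirus after 24 hours of expansion. After 48 hours with it they grew for 12 days with 3 cytokines, namely stem cell factor at 100 ng/ml, FLT3 ligand at 10 ng/ml and interleukin 7 at 20 ng/ml. ETV6-RUNX1 is the fusion of a pair of transcription factors found in childhood B-cell precursor leukemia, and BTG1 is an antiproliferative cofactor that is often deleted in that disease. The labels give neither the number of embryos behind a culture nor the promoter of the retrovirus.

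Protein arginine methyltransferases transfer methyl groups from S-adenosylmethionine to arginine side chains of histones, splicing factors and other RNA-binding proteins. Type I enzymes make asymmetric dimethylarginine, the type II enzyme PRMT5 makes symmetric dimethylarginine, and the type III enzyme PRMT7 adds a single methyl group. BTG1 binds PRMT1 and modulates its activity, which ties this family to the gene deleted here, and PRMT1 takes part in B-cell development in mice.

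Each level below is the authors' RMA value on the log2 scale, and each difference is a log2 difference of a pair of arrays. Values under 6, the floor, gave only a bound. With 1 array per group, no difference has a replicate check or a p-value, and a difference of at least 2-fold (1 on the log2 scale) was counted as a call. The spread beside a difference is the robust standard deviation of the differences of the 250 genes next in level on either side, for the same arrays. True differences of those neighbors widen it, and variation between cultures is not in it. In bulk RNA such as this, fewer cells of a type and less RNA per cell cannot be told apart.

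The floor was reached by 5869 to 5900 genes on each array. Btg1 had levels of 9.97 and 9.02 in Btg1-/- cells with ETV6-RUNX1 and with Ctrl, against 11.97 and 11.87 in the matching WT cells. The place of the probes relative to the deleted part is unknown here. The array of Btg1-/- cells with ETV6-RUNX1 stood apart from the others. Among the 1535 genes averaging 10 or more, differences had a robust standard deviation of 0.2402 to 0.296 in the comparisons that used it, and 0.120 to 0.135 in the others. In a list of fetal liver progenitor genes, Cd34 was at or above the floor on 3 arrays and Ly6a on all 4, and Ptprc lay close to the floor. Flt3 and Spn lay below it throughout. Kit, by whose product the cells were isolated, was not analysed here. B-cell progenitor genes such as Vpreb1 (13.78 to 14.00) and mast cell genes such as Cpa3 (13.63 to 14.67) were above 13 on every array. Within the B-cell list, however, Pax5 lay below the floor on all 4 arrays, Dntt on 3 and Rag2 on 2, and Il7r stood at 6.65 to 7.60.

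Promoter sequence was at hand for 6 of the 7 genes, in RefSeq windows of 300 bases on GRCm38.p6 that run from 250 bases before the transcription start to 50 after it. Shown are the windows of Prmt1 and Prmt3, which held a canonical E-box, the core recognized by MYC with MAX, and that of Prmt6, which held the core recognized by RUNX factors. The capitals mark those letters. The Prmt1 window is chr7:44986371-44986670 on the minus strand, the Prmt3 window chr7:49778108-49778407 on the plus strand and the Prmt6 window chr3:110250950-110251249 on the minus strand.
Prmt1: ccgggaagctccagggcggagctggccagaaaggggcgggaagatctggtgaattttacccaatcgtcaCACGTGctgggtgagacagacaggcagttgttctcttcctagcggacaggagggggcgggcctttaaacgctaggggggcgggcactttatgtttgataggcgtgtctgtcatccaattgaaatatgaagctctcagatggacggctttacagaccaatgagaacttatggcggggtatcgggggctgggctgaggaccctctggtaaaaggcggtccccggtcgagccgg
Prmt3: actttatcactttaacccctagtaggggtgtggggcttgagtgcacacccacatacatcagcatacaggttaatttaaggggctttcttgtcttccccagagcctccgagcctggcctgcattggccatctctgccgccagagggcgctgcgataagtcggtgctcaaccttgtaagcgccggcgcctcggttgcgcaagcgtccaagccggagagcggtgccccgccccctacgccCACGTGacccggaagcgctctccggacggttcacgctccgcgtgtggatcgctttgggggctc
Prmt6: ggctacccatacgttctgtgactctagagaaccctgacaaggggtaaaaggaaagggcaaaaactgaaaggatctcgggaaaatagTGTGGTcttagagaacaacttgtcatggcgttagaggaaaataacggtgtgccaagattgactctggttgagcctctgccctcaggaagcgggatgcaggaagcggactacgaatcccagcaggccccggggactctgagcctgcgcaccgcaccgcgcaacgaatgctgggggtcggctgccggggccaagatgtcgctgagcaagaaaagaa

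The E-box, searched as CACGTG, which reads alike on both strands, began at position -181 from the start of Prmt1 and at position -13 from that of Prmt3. It was in 7.15% of all 32851 promoter windows of this length. The RUNX core, searched as TGTGGT on both strands, began at position -164 from the start of Prmt6 and was in 16.8% of all windows. The CCAAT box, searched as CCAAT on both strands, was in 37.4% of windows, and occurred 3 times in Prmt1, 4 times in Prmt5 and once each in Prmt2 and Prmt3. The GC box, GGGCGG on both strands, was in 35.7% of windows and was present in Prmt1, Prmt2, Prmt3 and Prmt7. An ETS core, CCGGAAG on both strands, was in 8.86% of windows and was present in Prmt2 and Prmt3. No match overlapped another in these 6 windows. A match is a description of letters and not a bound site.

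Among the type I enzymes, Prmt1, the main producer of asymmetric dimethylarginine in most cells and the partner of BTG1, had its lowest level in cells with both lesions. Its levels were 12.24 in Btg1-/- cells with ETV6-RUNX1, 12.95 in Btg1-/- cells with Ctrl, 12.79 in WT cells with ETV6-RUNX1 and 12.82 in WT cells with Ctrl. The array with both lesions lay 0.55 or more below the others, which spanned 0.16. The WT arrays did not differ beyond the spread (-0.03, spread 0.11), and the Btg1-/- control lay just beyond it above the WT control (0.13, spread 0.11).

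Prmt3, a cytosolic enzyme with a zinc finger that methylates ribosomal protein S2, had the steadiest level on the remaining arrays. It stood at 10.23 in Btg1-/- cells with ETV6-RUNX1, 11.09 in Btg1-/- cells with Ctrl, 11.05 in WT cells with ETV6-RUNX1 and 11.12 in WT cells with Ctrl. The upper 3 values lay within 0.071 of each other, and no pair of them differed beyond its spread.

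Prmt6, a nuclear enzyme that modifies histone H3 near its start, followed the same order at a lower level. Its levels were 6.94 in Btg1-/- cells with ETV6-RUNX1, 7.75 in Btg1-/- cells with Ctrl, 7.74 in WT cells with ETV6-RUNX1 and 7.85 in WT cells with Ctrl. Again no pair among the upper 3 differed beyond its spread, and the array with both lesions lay 0.80 below the lowest of them. Centred on their means over the 4 arrays, the profiles of Prmt3 and Prmt6 lay at a Euclidean distance of 0.0578. Each was the gene 3rd nearest to the other among 5441 genes.

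Carm1, also called PRMT4, a coactivator of nuclear receptors, separated by virus and not by genotype. Its levels were 5.90 in Btg1-/- cells with ETV6-RUNX1, 6.79 in Btg1-/- cells with Ctrl, 5.75 in WT cells with ETV6-RUNX1 and 6.65 in WT cells with Ctrl. Both ETV6-RUNX1 arrays lay below the floor and have no order between them. Carm1 was thus at least 1.73-fold lower with the fusion in Btg1-/- cells and at least 1.57-fold lower in WT cells, with spreads of 0.48 and 0.52 on the log2 scale. All of its levels were close to the floor.

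Prmt2, which carries an SH3 domain and has weak activity, went the other way. It stood at 7.38 in Btg1-/- cells with ETV6-RUNX1, 7.15 in Btg1-/- cells with Ctrl, 7.34 in WT cells with ETV6-RUNX1 and 6.70 in WT cells with Ctrl. The WT control was the low array, and the other 3 did not differ beyond their spreads.

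Prmt5, the main source of symmetric dimethylarginine and the enzyme that methylates Sm proteins of the spliceosome, was lower on both ETV6-RUNX1 arrays. Its levels were 9.08 in Btg1-/- cells with ETV6-RUNX1, 9.95 in Btg1-/- cells with Ctrl, 9.62 in WT cells with ETV6-RUNX1 and 9.94 in WT cells with Ctrl. The control arrays differed by 0.01 (spread 0.14). The level with the fusion in WT lay between the controls and the array with both lesions, beyond the spread from either.

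Prmt7, the monomethylating enzyme, had the widest range of the 7, or 1.15. It stood at 7.12 in Btg1-/- cells with ETV6-RUNX1, 8.27 in Btg1-/- cells with Ctrl, 7.83 in WT cells with ETV6-RUNX1 and 7.89 in WT cells with Ctrl. The array with both lesions was lowest and the Btg1-/- control highest, and the WT arrays did not differ beyond the spread (-0.05, spread 0.27).

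**Figure D1:**
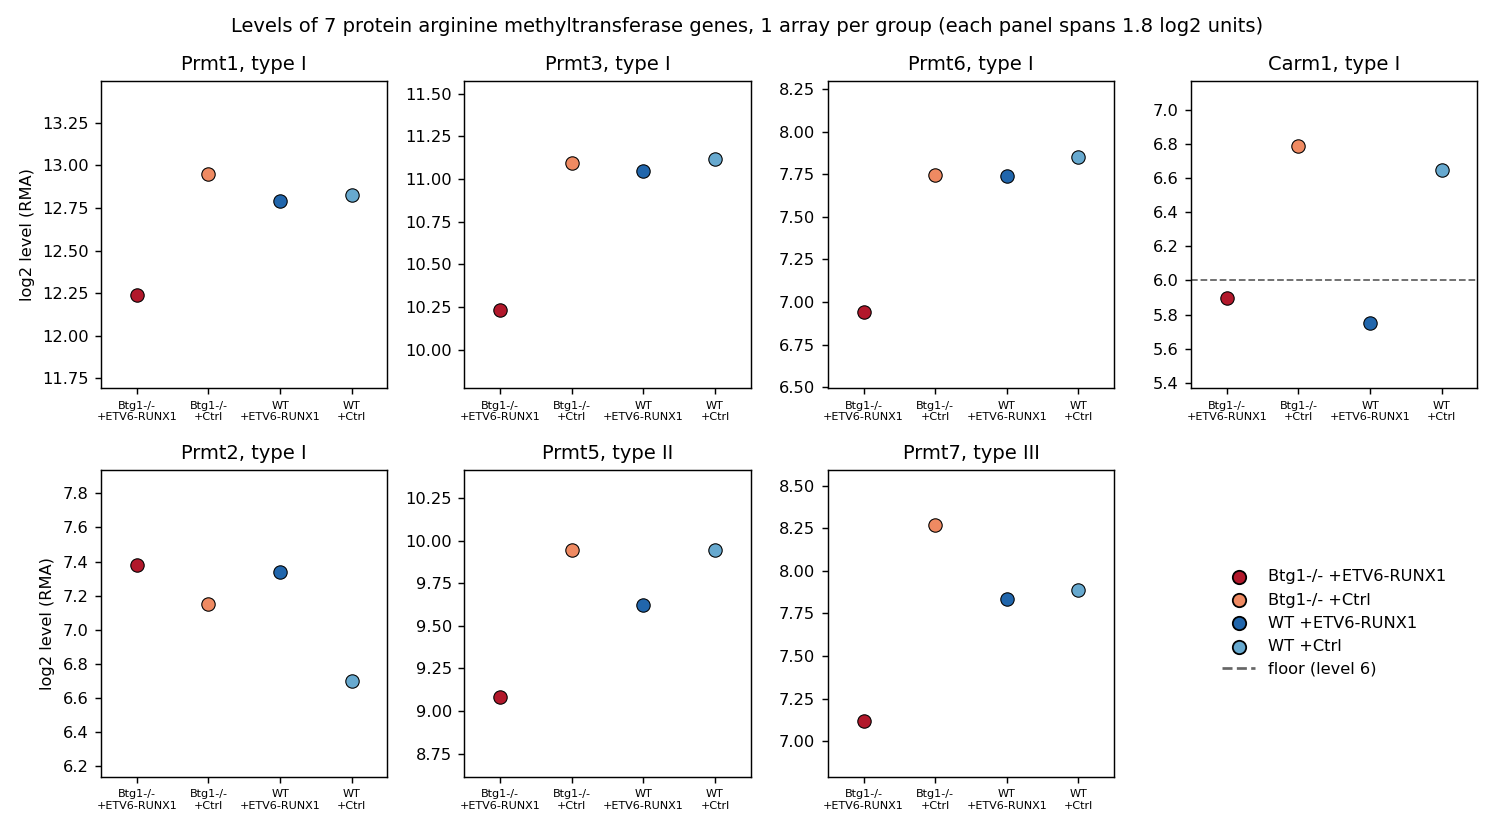
Log2 RMA levels of the 7 genes (vertical axes, 1.8 log2 units in each panel) on the 4 arrays, 1 point per array, with no error bars because each group had 1 array and with the floor of 6 dashed where it falls in the panel. Prmt1, Prmt3, Prmt5, Prmt6 and Prmt7 were lowest in Btg1-/- cells with ETV6-RUNX1, Carm1 was below the floor on both ETV6-RUNX1 arrays, and Prmt2 was lowest in the WT control.

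Of the 6 members that reached the floor on every array, 5 had a level in Btg1-/- cells with ETV6-RUNX1 at least 0.5 below each of the other 3 arrays. The same held for 4.74% of the 5442 such genes on the array. Prmt2 was the exception.

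ETV6-RUNX1 in Btg1-/- cells, set against Ctrl in the same genotype, went with lower levels of 6 of the 7 genes, of all 3 enzyme types. Of all 6159 genes compared, 48.5% were below 0. Prmt7 was 2.22-fold lower (log2 difference -1.15, spread 0.43) and was the 1 member past 2-fold, a size that 2.37% of all genes reached downward. Prmt5 and Prmt3 were both 1.82-fold lower (-0.86 each, spreads 0.34 and 0.36), Prmt6 1.75-fold (-0.81, spread 0.44), Carm1 at least 1.73-fold and Prmt1 1.64-fold (-0.71, spread 0.24). All 6 thus passed 1.5-fold downward, against 8.17% of all genes. Prmt2 differed by 0.23, within its spread of 0.43. The median over the 7 members was -0.81, and that over all genes compared was 0.01.

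In WT cells the same comparison gave small differences for most of the family. Prmt1, Prmt3, Prmt6 and Prmt7 differed by -0.03, -0.07, -0.11 and -0.05, each within its spread, and Prmt5 by -0.32 (spread 0.17). Carm1 was at least 1.57-fold lower and Prmt2 1.56-fold higher (0.64, spread 0.37). No member passed 2-fold, as 2.24% of the 6123 genes compared did, and 1 member passed 1.5-fold downward, against 2.99% of genes, and 1 upward, against 4.47%. Below 0 were 6 of 7 members, beside 54.3% of genes. The median over the members was -0.07, beside -0.02 over all genes.

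The ETV6-RUNX1 differences of both genotypes share no array, so they can be set against each other. The difference of effects, Btg1-/- minus WT, was below 0 in all 6 members at or above the floor on the 4 arrays, against 49.7% of the 5442 such genes. It was -1.10 for Prmt7 (spread 0.51), -0.79 for Prmt3 (0.34), -0.69 for Prmt6 (0.47), -0.68 for Prmt1 (0.26), -0.54 for Prmt5 (0.34) and -0.41 for Prmt2 (0.52). Prmt7 was the 1 member past 2-fold, a size that 2.41% of genes reached downward, and 4 of the 6 passed 1.5-fold downward, against 9.35% of genes. The Prmt2 value lay within its spread. The median was -0.69 over these members and below 0.01 in size over all genes. No replicate allowed a test of these differences between genotypes.

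**Figure D2:**
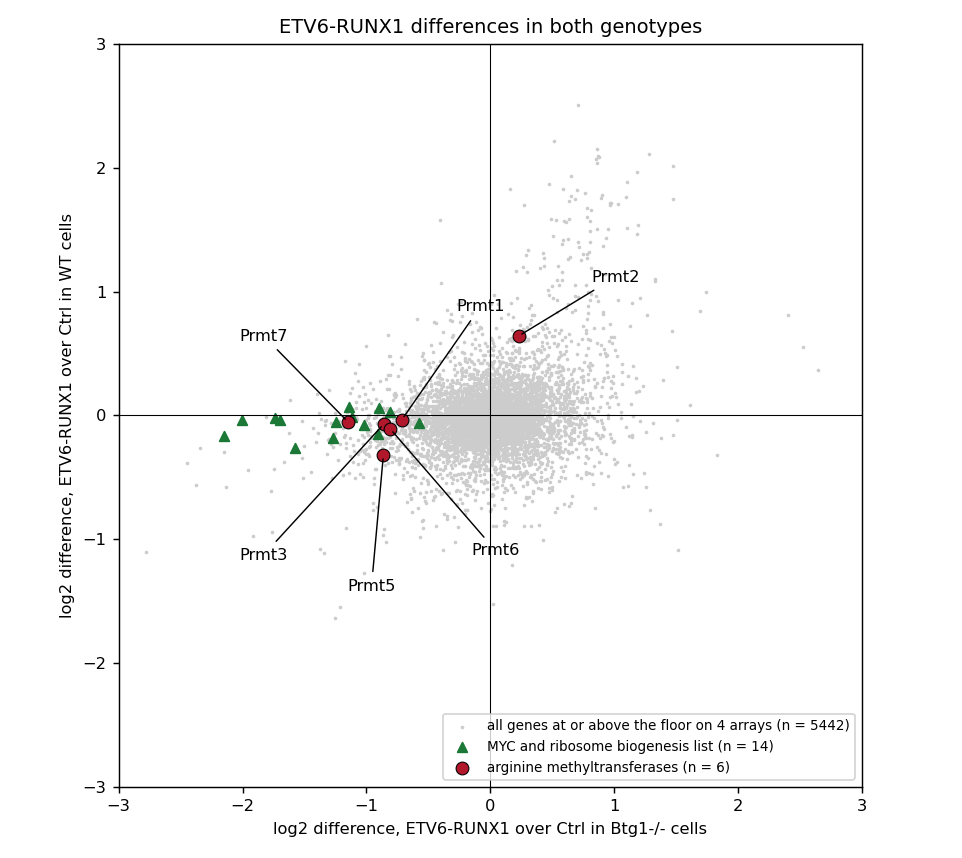
Log2 difference of ETV6-RUNX1 over Ctrl in Btg1-/- cells (horizontal axis) and in WT cells (vertical axis) for 5442 genes that reached the floor on 4 arrays (grey points), the 6 methyltransferase genes among them (red circles) and 14 genes of the MYC and ribosome biogenesis list (green triangles). The red points other than Prmt2 lie between -0.71 and -1.15 on the horizontal axis and between -0.03 and -0.32 on the vertical axis, and all green triangles lie below 0 on the horizontal axis, whereas on the vertical axis Ncl, Pa2g4 and Pes1 lie above 0.

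Loss of Btg1 was then compared at constant virus. With ETV6-RUNX1, Btg1-/- cells had lower levels than WT cells for 5 of 6 members measured, beside 49.4% of the 6106 genes compared. Prmt3 was 1.76-fold lower (-0.82, spread 0.27), Prmt6 1.74-fold (-0.80, spread 0.38), Prmt7 1.64-fold (-0.72, spread 0.38), Prmt1 1.47-fold (-0.55, spread 0.20) and Prmt5 1.45-fold (-0.54, spread 0.29). Prmt2 differed by 0.04, and Carm1 was below the floor on both arrays. No member passed 2-fold, which 1.59% of genes did, and 3 passed 1.5-fold downward, as did 5.06% of genes. The median over the members was -0.63. This comparison and that of ETV6-RUNX1 in Btg1-/- cells share the array with both lesions, so they do not count as separate evidence.

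With Ctrl, loss of Btg1 went with little difference in this family. Prmt1, the BTG1 partner, differed by 0.13 (spread 0.11), Prmt3 by -0.03, Prmt5 by 0.01, Prmt6 by -0.11 and Carm1 by 0.14, the last 4 within their spreads. The larger values were 0.45 for Prmt2 (spread 0.32) and 0.38 for Prmt7 (spread 0.22). Of the 7 members 5 were above 0, beside 49.6% of the 6097 genes compared, and none passed 2-fold or 1.5-fold, sizes that 0.672% of genes reached in either direction, and 1.84% downward and 2.25% upward. The median over members was 0.13.

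Cells with both lesions, set against the WT control, had 6 of the 7 genes at least 1.5-fold lower, as did 7.66% of the 6173 genes compared. The values were -0.91 for Prmt6, -0.89 for Prmt3, -0.86 for Prmt5, -0.77 for Prmt7 and -0.59 for Prmt1, and Carm1 was at least 1.57-fold lower. Prmt2 was 1.61-fold higher (0.68, spread 0.45), a direction in which 8% of genes passed 1.5-fold. No member passed 2-fold, and 4.39% of genes did. This comparison rests on the same array with both lesions as that of ETV6-RUNX1 in Btg1-/- cells. The count of members at least 0.5 below the other arrays, the difference of effects and Btg1 loss with ETV6-RUNX1 use it too. These results therefore do not count as separate evidence.

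**Figure D3:**
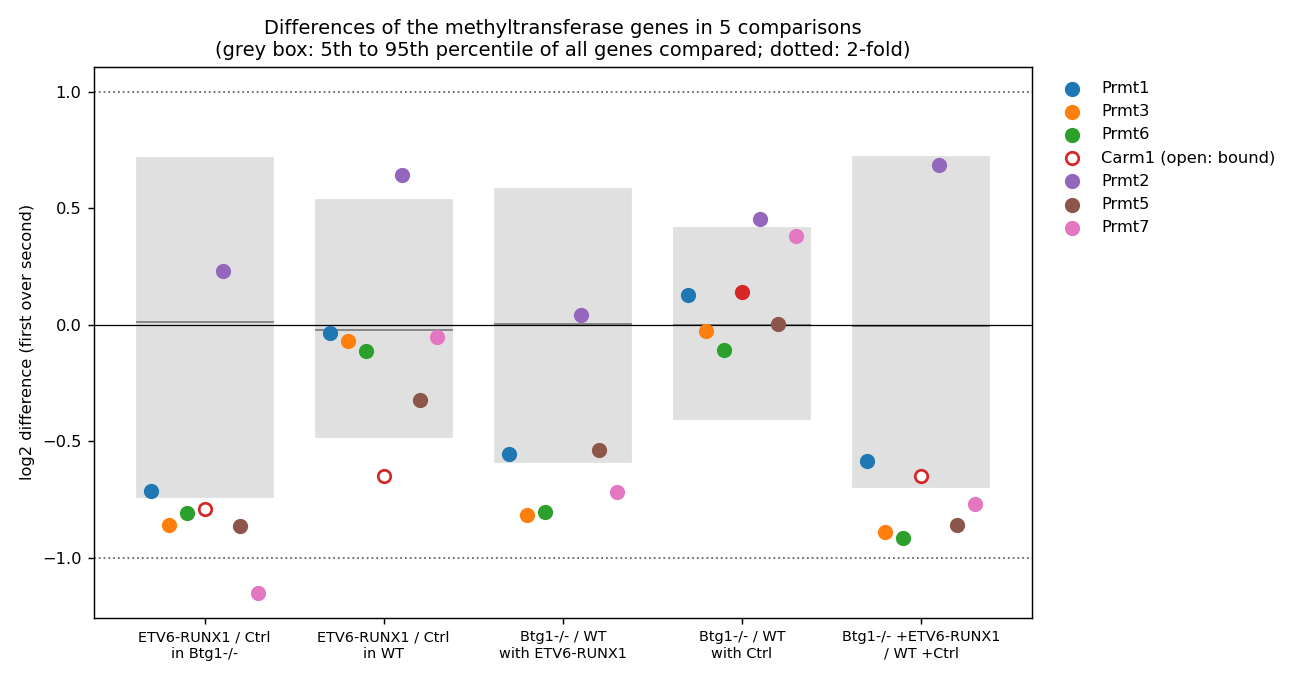
Log2 differences (vertical axis) of the methyltransferase genes in the 5 comparisons (horizontal axis, first group over second), 1 point per gene, with open circles for bounds, a grey box from the 5th to the 95th percentile of all genes compared, a grey line at their median and dotted lines at 2-fold. In the comparison of ETV6-RUNX1 over Ctrl in Btg1-/- cells, 5 of the 7 genes lie below the box, whose lower edge is at -0.74, and Prmt1 lies just inside it at -0.71.

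Genes around the enzymes were read from lists that, like the family, were chosen with earlier results of these arrays known. Of 16 binding partners and regulators, 7 were measured in the ETV6-RUNX1 comparison in Btg1-/- cells. Of these 7, 4 were below 0, beside 48.5% of all genes. None passed 2-fold, and the list median was -0.06. Clns1a, the pICln subunit that brings Sm proteins to PRMT5, differed by -0.51 in Btg1-/- cells and -0.30 in WT cells. Riok1, the adaptor that competes with it for PRMT5, differed by -0.06 and -0.11. Btg2, the paralog of Btg1 that also binds PRMT1, and Wdr77, the obligate partner of PRMT5, lay below the floor on all 4 arrays, at 2.59 to 3.41 and 3.67 to 5.16.

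Among substrates of these enzymes, 20 of 24 measured genes were below 0 with ETV6-RUNX1 in Btg1-/- cells, beside 48.5% of all genes. The substrate median was -0.18, and none of the 24 passed 2-fold. In WT cells 15 of 24 were below 0, with a median of -0.09, beside 54.3% of all genes below 0. The largest difference in Btg1-/- cells was that of nucleolin (Ncl, -0.90), a nucleolar protein that is also in the ribosome biogenesis list. Hnrnpa1 differed by -0.59 and the Sm protein gene Snrpd3 by -0.53. Runx1, a PRMT1 substrate and a part of the fusion, differed by -0.32 in Btg1-/- cells and -0.18 in WT cells, both within the spread (0.41 and 0.26), and its probes do not tell the fusion transcript from the mouse gene as far as the sources used here say. Cdk4 and Cd79a were not analysed here. Of 3 measured reader genes, Smn1, the Tudor protein of Sm assembly, differed by -0.52 and Tdrd3 by 0.02 in Btg1-/- cells, and Snd1 was at least 1.60-fold lower there.

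The methyl donor cycle held 6 measured genes, with a median of -0.19 in Btg1-/- cells with ETV6-RUNX1. Of the 6, 4 were below 0, beside 48.5% of all genes. Mtap, the phosphorylase that clears methylthioadenosine, an inhibitor of PRMT5, was the member past 2-fold, a size that 2.37% of all genes reached downward. It had levels of 7.48 with ETV6-RUNX1 and 8.55 with Ctrl in Btg1-/- cells (-1.07), against 7.99 and 8.38 in WT cells (-0.39). Mat2a, which makes S-adenosylmethionine, differed by -0.32 and 0.18 in Btg1-/- and WT cells, and Ahcy, which removes the product inhibitor S-adenosylhomocysteine, by -0.30 and -0.17. All 4 of these values lay within their spreads, which were 0.35 and 0.20 for Mat2a and 0.45 and 0.28 for Ahcy. Ddah2, which is linked to the breakdown of free methylarginine, differed by 0.80 and 0.39, and Jmjd6 by 0.06 and 0.08.

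Other methyltransferase genes were set beside the family. Of 11 histone lysine methyltransferase genes measured in Btg1-/- cells, 7 were below 0 with ETV6-RUNX1, beside 48.5% of all genes. None passed 2-fold, and 1 passed 1.5-fold downward, Smyd2 at -0.84, beside 8.17% of all genes. The list median was -0.13, with Setd1a at that median. Of 14 DNA and RNA methyltransferase genes, with a median of -0.55, 13 were below 0, beside 48.5% of all genes. Downward, 7 passed 1.5-fold and 4 passed 2-fold, beside 8.17% and 2.37% of all genes. Those 4 were Trmt61a (-1.81), the rRNA methyltransferase gene Nop2 (-1.50), Mettl1 (at least 2.63-fold lower) and Ftsj3 (-1.11). With a floor of 7, Nop2 (-0.67) and Mettl1 (-0.39) did not reach 2-fold, and 2 of 10 measured genes did, with a median of -0.33. Among the other RNA methyltransferase genes, Tgs1 was 1.58-fold lower (-0.66), beyond its spread of 0.43. Trmt1 and Nsun4 differed by -0.06, Emg1 by -0.27, Mettl3 by -0.19 and Rnmt by -0.01, each within its spread. Nsun2 and Nsun5 were at least 1.60-fold and 1.65-fold lower, bounds of -0.68 and -0.72 with spreads of 0.83 and 0.54. The bound for Nsun2 thus lay within its spread. In WT cells the medians of these lists were -0.13 and -0.02.

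MYC and ribosome biogenesis genes differed in the same direction as the arginine methyltransferases. In Btg1-/- cells 15 of 15 measured genes were below 0 with ETV6-RUNX1, beside 48.5% of all genes. Of the 15, 11 passed 2-fold downward, beside 2.37% of all genes, and the list median was -1.25. In WT cells the list median was -0.04, with 11 of 15 below 0, beside 54.3% of all genes. With a floor of 7, 9 of 15 passed 2-fold. Myc itself, which is in this list, lay below the floor on all arrays, at 2.72 and 4.42 with ETV6-RUNX1 and Ctrl in Btg1-/- cells and 2.76 and 4.03 in WT cells. The list includes Gnl3 (-1.69), Bop1 (-1.25) and Odc1 (-1.02) in Btg1-/- cells. Markers of cell types also differed between these arrays. Of all genes compared, 48.5% were below 0 in Btg1-/- cells and 54.3% in WT cells. Of the B-cell progenitor genes measured, 10 of 10 in Btg1-/- cells and 4 of 9 in WT cells lay above 0, with medians of 0.47 and -0.02. In Btg1-/- cells Vpreb1 (0.05, spread 0.22) and Ebf1 (0.22, spread 0.34) lay within their spreads, and Rag2 and Dntt gave bounds. Rag1 had the largest difference there (1.47), and its level was lowest in the Btg1-/- control. It stood at 11.09 with ETV6-RUNX1 and 9.62 with Ctrl in Btg1-/- cells, against 10.63 and 10.79 in WT cells. The summed level of the B-cell list was 15.64 and 15.30 on the log2 scale with ETV6-RUNX1 and Ctrl in Btg1-/- cells, against 15.28 and 15.36 in WT cells. The 11 genes of mast cells and basophils all lay above 0 in both genotypes, with summed levels of 16.33 and 15.63 in Btg1-/- cells, against 16.36 and 15.12 in WT cells. Of 10 megakaryocyte genes 5 were measured, all above 0 in both genotypes, with medians of 1.33 in Btg1-/- cells and 1.13 in WT cells. Upward, 3 of them passed 2-fold in Btg1-/- cells and 4 in WT cells. In either direction, 250 of all 6159 genes passed 2-fold in Btg1-/- cells, 146 of them downward, and 137 of 6123 in WT cells. The summed level of the megakaryocyte list was 10.66 and 9.56 in Btg1-/- cells, against 10.50 and 9.31 in WT cells. Its defining markers Pf4, Ppbp and Gp9 lay below the floor on all arrays. Both measured granulocyte and monocyte genes, Fcgr3 and Lyz2, were above 0 in both genotypes, with medians of 0.79 in Btg1-/- cells and 0.95 in WT cells, and the other 7 lay below the floor on all arrays. Only bounds were given by Vwf and Lyz2 in both genotypes, and by Itga2b and the mast cell gene Slc18a2 in WT cells. Of the erythroid list, Tfrc differed by -0.62 (spread 0.29) and Hbb-b1 by 0.28 (spread 0.48) in Btg1-/- cells, and the others lay below the floor. The summed level of that list was 11.145 and 11.72 in Btg1-/- cells, against 11.60 and 11.58 in WT cells. Of the T and NK cell list only Lck was measured, at -0.38 in Btg1-/- cells (spread 0.37) and 0.01 in WT cells. The part of all these genes and cells in the lower methyltransferase levels was not tested. The 5 measured housekeeping genes had a median of -0.03 in Btg1-/- cells and -0.07 in WT cells.

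**Figure D4:**
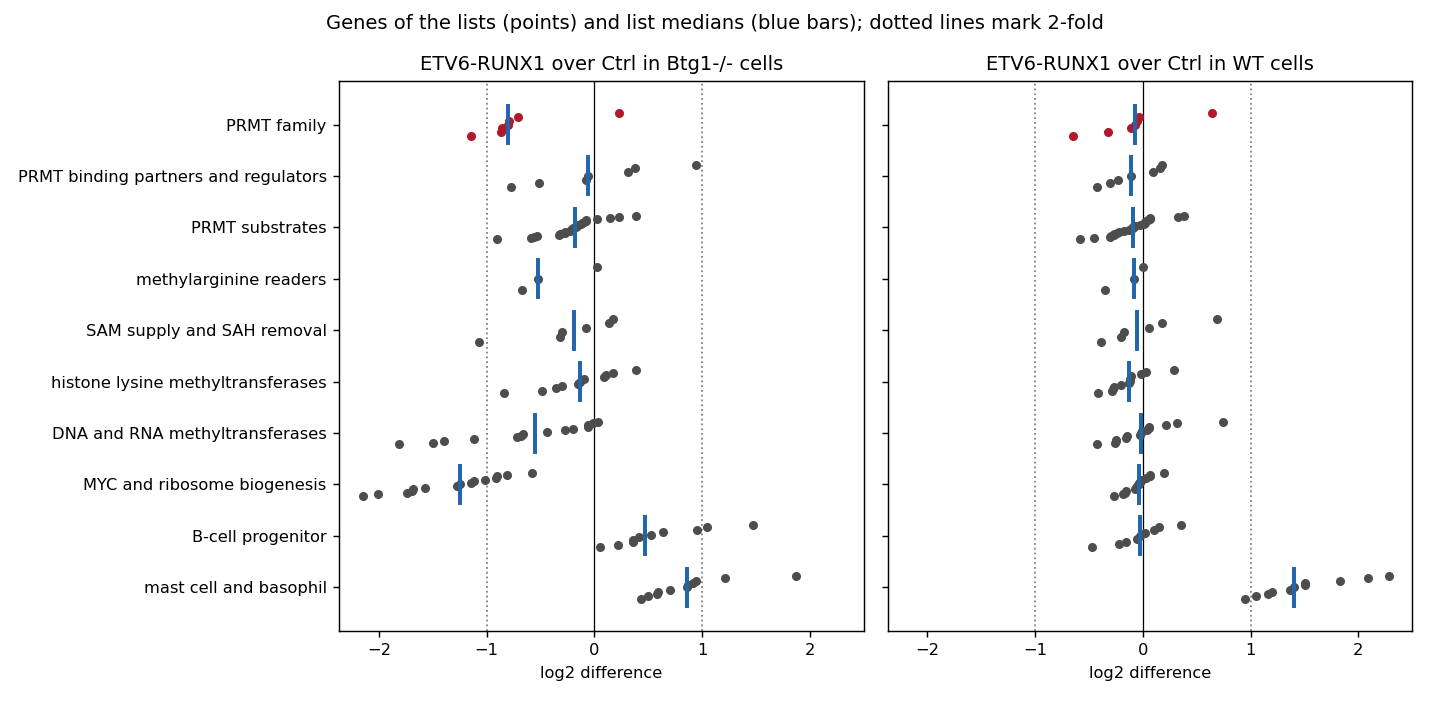
Log2 differences of ETV6-RUNX1 over Ctrl (horizontal axes) in Btg1-/- cells (left) and WT cells (right) for the measured genes of 10 lists (rows), 1 point per gene spread vertically within its row, with list medians as blue bars and dotted lines at 2-fold. In Btg1-/- cells the medians are -0.81 for the arginine methyltransferases, -0.55 for DNA and RNA methyltransferases and -1.25 for MYC and ribosome biogenesis genes, and in WT cells these lie at -0.07, -0.02 and -0.04.

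Profiles most like those of Prmt1 and of Prmt7, the member with the widest range, were sought among the genes that reached the floor on every array, by Euclidean distance between levels centred on each gene's mean. The nearest to Prmt1 were Slc39a11, Arid3b, Exosc2, Tmem97 and Sephs2, at distances of 0.0268 to 0.0382 on the log2 scale. Those nearest to Prmt7 were JTV1, described as a component of the aminoacyl-tRNA synthetase complex, Cirh1a and Lrrc59, with a pair of genes known by clone names, at 0.106 to 0.124. Prmt5, the member nearest to Prmt7, ranked 130th for it at 0.295, and Prmt3 ranked 354th for Prmt1 at 0.236. Such likeness rests on 4 arrays, over which the array with both lesions sets most of the range.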

How the data were processed

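Total RNA of 4 cultures was labeled with biotin and hybridized to Illumina MouseRef-8 arrays. Per the file headers, the deposited log2 levels were RMA-normalized in ArrayStar by the authors, which makes the arrays' distributions alike, so a shift of all genes cannot be seen. Whether a gene's probes were averaged was not stated in the headers or labels. The authors' deposited fold ratios equaled 2 to the power of the log2 differences within 1e-05 on the log2 scale. Another table's 8 columns, signals before normalization and their detection p-values, match no sample's labels and were not used.

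Levels under 6 were raised to 6. Comparisons kept genes that reached this floor on 1 or both arrays, and the difference of effects those that reached it on all 4. The spread is 1.4826 times the median absolute deviation over the 250 neighboring genes on either side. The floor came from an earlier analysis of these arrays. The members and the 17 lists were chosen with earlier results of these data known. Besides the 7 members, named genes were a fixed set of partners and substrates, list members past 2-fold (up to 4 a list) or near a list's median, and the 5 nearest profiles; markers and further list members were named after their values were seen. Some genes of that set are not reported here. Of 220 list genes 201 were on the array, 16 of them through RefSeq synonyms.

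No test was run, since each group had 1 array, and the number of arrays limits the precision. A model with additive terms for genotype and virus, with 1 degree of freedom left over, was not fitted. Alternatives were other scalings, floors, a filter and a 1.5-fold call. Python 3.11.15, numpy 2.4.6, pandas 2.3.3 and matplotlib 3.10.9 were used, and the calls were tested on simulated arrays. Changes were simulated only in genes well above the floor. Levels as low as those of Carm1, Prmt2 and Prmt6 were not covered. Those of Prmt7, averaged over the arrays compared, were covered only for Btg1 loss with Ctrl.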

Additional observations from a re-analysis of the deposited data

Results flagged for a closer look

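Of the 6 methyltransferase genes above the floor on all arrays, 3 had differences of opposite sign for loss of Btg1 with and without ETV6-RUNX1. The same was true of 55.7% of all 5442 such genes, so the share among the members was no higher than the background. Prmt1 differed by -0.55 between Btg1-/- and WT cells with ETV6-RUNX1 and by 0.13 with Ctrl. Prmt7 differed by -0.72 and 0.38. Prmt5 differed by -0.54 and 0.01, and the second value was within its spread and had the other sign, -0.00095, with arrays scaled to an equal median. Each value rests on 1 array a group, and the differences between the backgrounds were not tested.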

How the results depend on the processing

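Over both scalings and the other floors, the median over the methyltransferase genes kept its sign and ran between -0.86 and -0.80 for ETV6-RUNX1 in Btg1-/- cells, and between -0.73 and -0.67 for the difference of effects. For Btg1 loss with Ctrl it was 0.07 with a floor of 7, against 0.13. Of 867 recomputed differences of single named genes, 851 moved by less than their spread, the 16 others all with a floor of 7, where 14 of them no longer passed 2-fold. For ETV6-RUNX1 in Btg1-/- cells these were Mettl1 (-0.39), Nop2 (-0.67), Grwd1 (-0.83) and Rpf2, listed as BXDC1 (-0.68). No called one changed sign. The counts of other lists with a floor of 7, and the signs under other scalings, were added after the data were seen. The 194 values of the 7 members were among the 851. With 1.5-fold as the call, a choice added after the data were seen, members past it in either direction numbered 6 for ETV6-RUNX1 in Btg1-/- cells, 2 for it in WT cells, 3 for Btg1 loss with ETV6-RUNX1, 7 for both lesions against the WT control and 4 for the difference of effects. In that order of the first 4 comparisons, and last for Btg1 loss with Ctrl, genes past 2-fold numbered 250, 137, 97, 271 and 41. They were 379, 241, 174, 431 and 100 with a floor of 5, 152, 75, 50, 166 and 19 with a floor of 7, and 1690, 1574, 1404, 1824 and 1468 with no floor. At 1.5-fold they were 997, 457, 611, 967 and 249. No paired analysis was possible because each group had 1 array and the labels carry no replicate numbers, so no array could be left out of a group either. The comparisons without the array of both lesions, which stood apart, are those of ETV6-RUNX1 in WT cells and of Btg1 loss with Ctrl, and neither had a member past 2-fold. Levels near 6, as those of Carm1, give only bounds.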
